A study of Mus musculus with 5 samples.

Results

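In mouse embryonic stem cells (ESCs) that lack Mbd3, the SUZ12 peaks of cells carrying an MBD3 form without its methyl-CpG-binding domain (ΔMBD) were compared with those of cells carrying a form without its coiled-coil domain (ΔCC). A gene was called listed in a library when at least 1 SUZ12 peak was linked to it with the peak's midpoint within 5 kb of the transcription start site. Either mutant listed 1786 genes, out of 1935 listed in any of the 4 libraries of the series. Of the 1786, 565 were listed in ΔMBD and not in ΔCC (ΔMBD only), 109 in ΔCC and not in ΔMBD (ΔCC only) and 1112 in both. These 3 sets were formed from the peak lists, so their sizes are a description of the lists and carry no test.

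All 4 chromatin immunoprecipitation and sequencing (ChIP-seq) libraries came from male 129SV ESCs with the Mbd3 gene knocked out, grown with LIF. They differ in what the cells carried: ΔMBD, ΔCC, WT (taken here as full-length MBD3) or GFP (taken here as the control without MBD3). The series design names the MBD3a isoform for the deletion forms. Each group is 1 library. The promoter and the level of the introduced proteins, and whether the cells were a single clone, are not stated in the labels. An input library from cells labelled EBRTcH3 has no peak table here and was not used. The tables give 2986 distinct peaks within 5 kb of a gene in ΔMBD, 2243 in ΔCC, 2671 in WT and 1893 in GFP. Read numbers and peak heights are not in these tables, so the depth of each library is unknown, and a longer list cannot be told apart from a deeper library. The Mbd3 and Suz12 genes themselves had no linked peak in the 4 libraries, so the lists give no check of the knockout. Peak lists do not measure expression, so the identity of the cells could not be checked: of the pluripotency genes, Esrrb was listed in both mutants, Tbx3 and Prdm14 in ΔMBD only, and Pou5f1, Nanog and Sox2 in neither mutant.

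SUZ12 is a core subunit of Polycomb repressive complex PRC2, which places the repressive mark of methylated lysine 27 on histone H3. In ESCs the complex sits mainly at CpG-rich start sites of developmental regulators that these cells keep silent. MBD3 is a subunit of NuRD, a complex that joins nucleosome remodelling to histone deacetylation. In mammals its methyl-CpG-binding domain binds methylated DNA only weakly, and the coiled coil of the closely related MBD2 pairs with a GATAD2 protein of the same complex.

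The genes listed in ΔMBD only were mostly also listed in WT, and those listed in ΔCC only mostly were not. Neither WT nor GFP was used to form the sets. Of the ΔMBD-only genes, 428 of 565 were listed in WT (75.8%, exact 95% binomial interval 72.0 to 79.2). Of the ΔCC-only genes, 28 of 109 were (25.7%, 17.8 to 34.9). The share over all 1786 genes was 85.4%. In GFP the order was the other way round. It listed 67 of the 565 ΔMBD-only genes (11.9%, 9.31 to 14.8) and 47 of the 109 ΔCC-only genes (43.1%, 33.7 to 53.0), against 58.0% of all 1786 genes. The intervals here and below cover counting error over genes or peaks, and not the spread between cultures. Of the 1112 genes listed in both mutants, 96.1% were in WT and 82.8% in GFP. A further 130 ΔMBD-only genes and 47 ΔCC-only genes (43.1%) were in neither WT nor GFP, against 22 of the genes listed in both mutants (1.98%). The Hox genes and the interferon zeta genes supplied 17 of the 47 ΔCC-only genes in GFP. The longer lists were ΔMBD (1677 genes) and WT (1664) and the shorter ones ΔCC (1221) and GFP (1051), and the part of list length in these shares was not tested. Without the Hox and interferon zeta genes, 30 of 91 ΔCC-only genes were listed in GFP (33.0%) and 24 of 91 in WT (26.4%). The sets depended on the window and the peak number. With a window of 1 kb the ΔMBD-only set held 566 genes and the ΔCC-only set 231, and when at least 2 peaks were required they held 502 and 219. These are counts and not the same genes, since 228 of the 565 ΔMBD-only genes and 32 of the 109 ΔCC-only genes had 2 or more peaks. Of those 32 genes, GFP listed 26 (81.2%) and WT 9 (28.1%). The 32 include Hox genes and the interferon zeta genes, which GFP listed as well. The share without them was not taken.

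**Figure D1:**
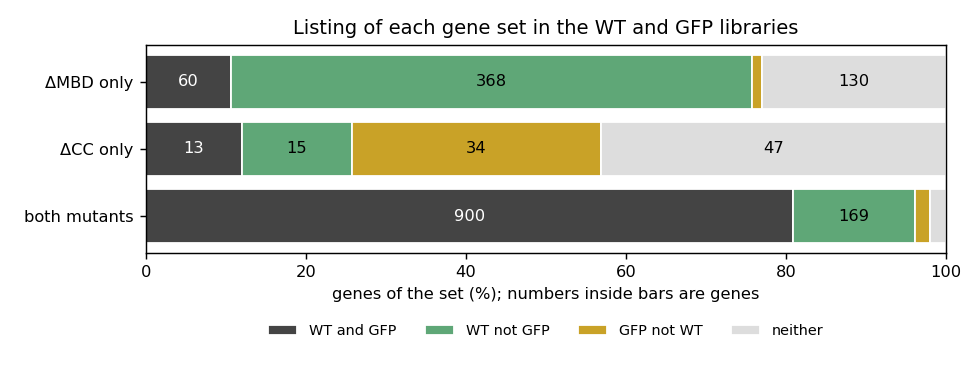
Horizontal bars give, for each gene set formed from the 2 mutants, the percentage of genes listed in both WT and GFP, in WT and not GFP, in GFP and not WT, or in neither (1 library each). Genes listed in WT and not GFP make up 368 of the 565 ΔMBD-only genes and 15 of the 109 ΔCC-only genes.

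Single peaks were also matched. A match needs a peak of the other library at the same gene, so these shares follow in part from the listing above. They are no separate support for it. Of the 863 links between a ΔMBD peak and a ΔMBD-only gene, 596 (69.1%, 65.9 to 72.1) had a WT peak at the same gene centred within 1 kb, and 84 (9.73%) had a GFP peak. Of the 182 links between a ΔCC peak and a ΔCC-only gene, 27 (14.8%, interval up to 20.8) had such a WT peak and 83 (45.6%, 38.2 to 53.1) a GFP peak. Over all genes, 72.2% of the 2986 ΔMBD peaks had such a WT peak and 41.3% a GFP peak. Of the 2243 ΔCC peaks, 66.4% had such a WT peak and 63.8% a GFP peak. The WT share at ΔMBD-only genes was thus near that of all ΔMBD peaks, and the remaining shares lay below those of all peaks. Between the mutants, 1493 of 2986 ΔMBD peaks (50%) had a ΔCC peak within 1 kb, and 1526 of 2243 ΔCC peaks (68.0%) had a ΔMBD peak.

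The ΔMBD-only genes had their peaks close to the start site. The closest ΔMBD peak was centred within 1 kb at 80.7% of the 565 ΔMBD-only genes (77.2 to 83.9) and at 758 of 1112 genes listed in both mutants (68.2%, 65.3 to 70.9). The median distance was 519 bp and 668 bp. The WT library, which did not form the sets, gave 84.8% (81.1 to 88.1) of the 428 ΔMBD-only genes it listed and 68.5% (65.6 to 71.3) of its 1069 genes listed in both mutants. The GFP library, which did not form the sets either, gave overlapping intervals: its closest peak was centred within 1 kb at 71.6% (59.3 to 82.0) of the 67 ΔMBD-only genes it listed and at 67.5% (64.4 to 70.6) of its 921 genes listed in both mutants, with medians of 724 bp and 647 bp. Among genes with a single WT peak the shares were 81.6% of 261 ΔMBD-only genes and 63.8% of 505 genes listed in both mutants, so in WT the difference was present without extra peaks. For the ΔCC-only genes the intervals overlap those of the shared genes. Their closest ΔCC peak was centred within 1 kb at 72 of 109 genes (66.1%, 56.4 to 74.9), against 72.6% (69.8 to 75.2) of the genes listed in both mutants. Downstream placement was alike in all sets. The closest peak lay at or downstream of the start site at 69.2% of ΔMBD-only genes in ΔMBD, at 69.7% of ΔCC-only genes in ΔCC, and at 70.6% (ΔMBD) and 72.8% (ΔCC) of the genes listed in both.

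**Figure D2:**
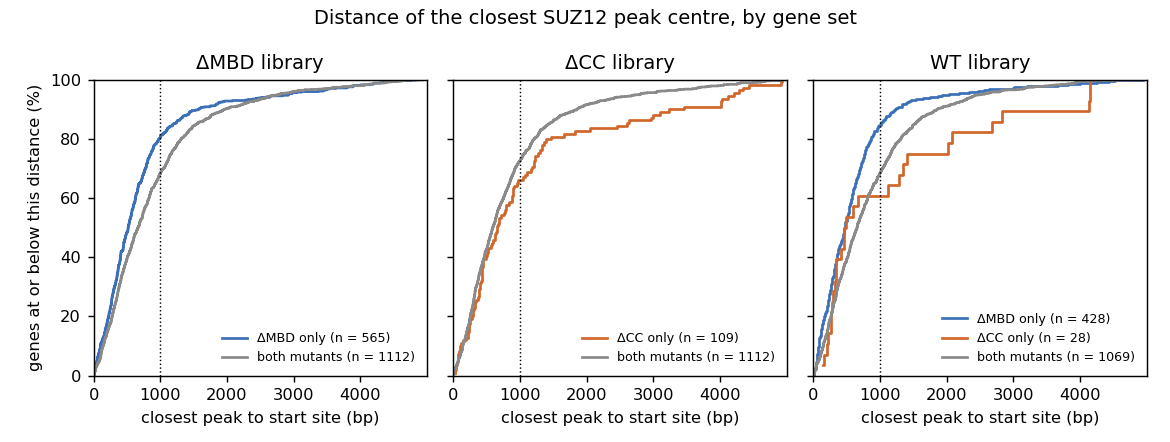
Curves give the percentage of genes whose closest SUZ12 peak centre lies at or below a distance in bp from the start site, for each gene set in the ΔMBD, ΔCC and WT libraries, and the dotted line marks 1 kb. In ΔMBD and in WT the curve of the ΔMBD-only genes reaches 80.7% and 84.8% at 1 kb, above that of the genes listed in both mutants (68.2% and 68.5%).

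The start sites under such peaks are shown for 2 genes of each set, those whose closest centre lay nearest to the start site among genes with a RefSeq promoter of 300 bases and a centre inside it (250 before and 50 after the start, build GRCm38.p6). For genes listed in both mutants, the order is that of the farther of the 2 mutants' closest centres. Capitals mark each CG dinucleotide, the letters CG, which read the same on both strands. Of the 32851 RefSeq promoters, 94.6% hold at least 1 CG and 26.5% hold 20 or more, with a median of 7. Distances in the files refer to start sites on mm9, which can differ from the RefSeq start. In ΔMBD only these were Disc1, a scaffold protein of neurons (chr8:125053945-125054244, plus strand, 33 CG), and Vopp1 (chr6:57825076-57825375, minus strand, 30 CG), with ΔMBD centres at 0 and +13 bp. In ΔCC only they were Hoxd3 (chr2:74711743-74712042, plus strand, 20 CG) and Adcy9, an adenylyl cyclase (chr16:4420449-4420748, minus strand, 42 CG), with ΔCC centres at +18 and +31 bp. In both mutants they were Nppc, which encodes C-type natriuretic peptide (chr1:86670524-86670823, minus strand, 29 CG), and Isl1, a LIM homeodomain factor of motor neurons and heart (chr13:116309639-116309938, minus strand, 37 CG).
Disc1: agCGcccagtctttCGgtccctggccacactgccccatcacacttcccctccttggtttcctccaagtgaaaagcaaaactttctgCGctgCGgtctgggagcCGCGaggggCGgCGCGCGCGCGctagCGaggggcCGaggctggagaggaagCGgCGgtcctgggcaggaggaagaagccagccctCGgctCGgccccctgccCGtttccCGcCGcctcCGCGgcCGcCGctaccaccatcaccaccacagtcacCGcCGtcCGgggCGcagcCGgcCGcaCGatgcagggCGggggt
Vopp1: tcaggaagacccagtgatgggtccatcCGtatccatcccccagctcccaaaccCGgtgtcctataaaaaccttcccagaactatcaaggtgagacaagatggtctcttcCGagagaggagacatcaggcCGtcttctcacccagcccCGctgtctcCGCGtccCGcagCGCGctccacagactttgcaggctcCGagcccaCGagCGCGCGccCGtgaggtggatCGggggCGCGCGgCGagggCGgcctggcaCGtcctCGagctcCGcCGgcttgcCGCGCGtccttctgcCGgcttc
Hoxd3: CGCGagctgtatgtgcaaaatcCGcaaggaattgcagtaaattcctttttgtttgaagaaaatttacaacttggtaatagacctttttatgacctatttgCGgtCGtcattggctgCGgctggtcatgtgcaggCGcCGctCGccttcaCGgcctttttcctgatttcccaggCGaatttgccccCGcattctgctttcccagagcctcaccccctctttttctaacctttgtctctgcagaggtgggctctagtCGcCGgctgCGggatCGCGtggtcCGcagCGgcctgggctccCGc
Adcy9: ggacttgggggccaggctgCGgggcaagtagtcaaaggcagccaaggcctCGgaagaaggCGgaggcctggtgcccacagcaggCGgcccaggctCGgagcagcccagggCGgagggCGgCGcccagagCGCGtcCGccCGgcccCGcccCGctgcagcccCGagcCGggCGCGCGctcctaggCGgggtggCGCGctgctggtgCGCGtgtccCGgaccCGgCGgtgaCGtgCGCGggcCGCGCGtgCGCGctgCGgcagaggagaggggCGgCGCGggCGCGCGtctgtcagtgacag
Nppc: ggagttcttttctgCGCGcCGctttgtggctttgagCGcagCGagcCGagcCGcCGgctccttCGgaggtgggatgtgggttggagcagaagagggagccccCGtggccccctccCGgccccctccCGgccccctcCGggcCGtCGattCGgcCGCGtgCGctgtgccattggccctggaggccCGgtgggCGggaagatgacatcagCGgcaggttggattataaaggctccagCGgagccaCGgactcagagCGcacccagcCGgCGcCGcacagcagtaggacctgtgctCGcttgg
Isl1: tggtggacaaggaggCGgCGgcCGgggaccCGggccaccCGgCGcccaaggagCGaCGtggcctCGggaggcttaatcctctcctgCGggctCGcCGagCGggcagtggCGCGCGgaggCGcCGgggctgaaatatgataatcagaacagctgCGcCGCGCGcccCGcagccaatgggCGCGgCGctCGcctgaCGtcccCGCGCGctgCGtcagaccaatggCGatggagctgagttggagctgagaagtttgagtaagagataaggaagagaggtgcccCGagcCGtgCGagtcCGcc
These 6 hold between 20 and 42 CG. The next gene by the same rule held 35 CG in ΔMBD only (Ebf4), 20 in ΔCC only (Tmem59l) and 5 in both mutants (Gm11744), so CG-rich starts were not found throughout. In ΔMBD alone Gm11744 came first, at -4 bp against 23 bp for Nppc and -49 bp for Isl1. In ΔCC its closest centre lay at -120 bp, against -78 and -108 bp. Disc1 and Vopp1 each had 2 peaks in ΔMBD, none in ΔCC, 1 in WT and none in GFP. Hoxd3 had none in ΔMBD, 3 in ΔCC, 1 in WT and 5 in GFP, and Adcy9 had its single peak in ΔCC alone. Isl1 had 5 peaks in ΔMBD, 6 in ΔCC, 6 in WT and 3 in GFP, with the closest centre at most 169 bp from the start site in each of the 4 libraries. Nppc had 1 peak in ΔMBD, 1 in ΔCC, 1 in WT and none in GFP.

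Genes with few peaks were those most often missing from the other mutant, and this held for ΔMBD genes far more than for ΔCC genes. Of ΔMBD genes with 1 peak, 430 of 767 were listed in ΔCC (56.1%, 52.5 to 59.6). The share was 70.2% with 2 peaks, 79.1% with 3 and 91.3% (84.2 to 96.0) of 104 genes with 4 or more. Of ΔCC genes with 1 peak, 517 of 594 were listed in ΔMBD (87.0%, 84.1 to 89.6). With 2 peaks it was 95.8%, with 3 it was 96.0%, and with 4 or more it was 90.9% (84.3 to 95.4) of 121. The 11 ΔCC genes with 4 or more peaks and none in ΔMBD were 4 Hox genes, 6 genes of the interferon zeta cluster and Plekhh3. Read by WT peaks, which formed no set, 84.0% of WT genes with 1 peak were listed in ΔMBD and 57.9% in ΔCC, and of those with 4 or more 98.4% in ΔMBD and 88.9% in ΔCC. Peak heights are not given, and how far list length or peak strength enters these shares was not tested.

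**Figure D3:**
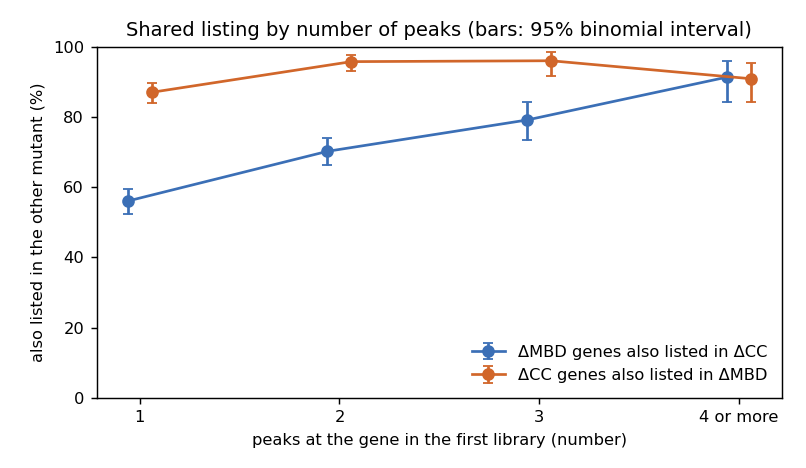
Points give the percentage of ΔMBD genes also listed in ΔCC, and of ΔCC genes also listed in ΔMBD, by the number of peaks at the gene in the first library, with exact 95% binomial intervals. The ΔMBD points climb from 56.1% at 1 peak to 91.3% at 4 or more, while the ΔCC points lie between 87.0% and 96.0%.

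By function, a smaller share of transcription factor genes than of all listed genes was in ΔMBD only, and a larger share of kinase, phosphatase and GTPase genes. Over all 1786 genes, 31.6% were in ΔMBD only, 6.10% in ΔCC only and 62.3% in both mutants, and each list below is read against these shares. The lists are named families, joined into larger groups after their counts had been seen. Outside the Hox clusters, transcription factor families had 201 genes listed in either mutant, of which 14 were in ΔMBD only (6.97%, 3.86 to 11.4), 6 in ΔCC only (2.99%) and 181 in both (90.0%, 85.1 to 93.8). WT listed 96.5% of the 201 and GFP 88.1%, against 85.4% and 58.0% of all genes. The high listing of these genes was thus common to all libraries. The kinase, phosphatase and small GTPase lists, which also hold regulators, had 55 genes listed in either mutant. Of these, 28 were in ΔMBD only (50.9%, 37.1 to 64.6), 2 in ΔCC only and 25 in both. Genes in none of the lists had 358 of 938 in ΔMBD only (38.2%, 35.0 to 41.4), a value inside that interval. The gap between transcription factor genes and other genes was also present at equal numbers of peaks. Of transcription factor genes with 1 ΔMBD peak, 75 of 81 were listed in ΔCC (92.6%, 84.6 to 97.2), against 344 of 675 genes outside these families (51.0%, 47.1 to 54.8). The shares themselves moved with the setting. Of transcription factors outside Hox, 25.4% were in ΔMBD only and 26.1% in ΔCC only with a 1 kb window (39.2% and 16.0% of all genes), and 19.9% and 29.2% with at least 2 peaks (44.5% and 19.4% of all genes). With 1 WT peak, 89.2% of 93 transcription factor genes and 53.8% of 810 others were listed in ΔCC.

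Genes of the homeobox and Pax families below, outside the Hox clusters, were listed by both mutants almost without exception (81 of 83). WT listed 98.8% of the 83 and GFP 95.2%, so this was common to all libraries. The families do not hold every homeobox gene. Outside them, Cdx4 and the POU gene Pou6f1 were in ΔMBD only, while Cdx2 and Barx1 were in both mutants. All 12 Nkx genes, 11 LIM homeobox genes, 8 Pax genes, 6 Iroquois genes and 9 Dlx and Msx genes that either mutant listed were in both. Of the 37 head, eye and brain homeobox genes, 35 were in both. Prrx2, a factor of limb and face mesenchyme, was in ΔMBD only, with 2 peaks in ΔMBD, none in ΔCC, 1 in WT and none in GFP. Otx1, of the forebrain, was in ΔCC only, with none in ΔMBD, 2 in ΔCC, 2 in WT and none in GFP. Its ΔCC centres lay at -3233 and 4849 bp, far from the start site, and its WT centres at -4610 and -4132 bp. Every Gata gene (5), Zic and AP-2 gene (8) and KLF, SP and EGR gene (8) listed in either mutant was in both.

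The T-box family, whose members pattern mesoderm, heart and limb, had 4 of 12 genes in ΔMBD only (33.3%, 9.92 to 65.1), 1 in ΔCC only and 7 in both, an interval that holds the 31.6% of all genes and overlaps that of the transcription factor families as a whole. Tbx3, a repressor active in ESCs and in limb and heart, had 4 peaks in ΔMBD, none in ΔCC, 4 in WT and none in GFP. Its ΔMBD centres lay at -2390, -791, 865 and 3792 bp and its WT centres at -2567, 304, 1150 and 2578 bp. Tbx5, its neighbour and a heart and forelimb factor, had 4, 5, 6 and 6 peaks in ΔMBD, ΔCC, WT and GFP. Tbx2 had 2 peaks in ΔMBD and 1 in WT, and Tbx1 had 1 in each of ΔMBD, WT and GFP. Tbx4 had 2 in ΔMBD and 2 in GFP, all upstream. Tbr1, a factor of cortical neurons, was the gene in ΔCC only, with 2 peaks in ΔCC, 5 in GFP and none in ΔMBD and WT. Of the other transcription factor families listed, the genes in ΔMBD only were Foxi2, Foxi3 and Foxo3 of 21 forkhead genes, Neurod1 of 24 bHLH genes, Nr3c1 (the glucocorticoid receptor) and Rxra of 13 nuclear receptors, Elf2 and Elk3 of 5 ETS genes, and Pou6f1 of 8 POU genes. Neurod1, which drives neuronal differentiation, had a ΔMBD centre at -660 bp and WT centres at -529 and 1359 bp. The genes of these families in ΔCC only were Sox14, Lyl1, Hes7 and Esrra, with 1 ΔCC peak each. The families do not cover every transcription factor: Ebf4, Casz1 and Dmrta1, named after their values were seen, each had 3 peaks in ΔMBD, none in ΔCC, 1 in WT and none in GFP. Zinc finger genes named Zfp, kept apart from these families, had 4 of 15 in ΔMBD only (26.7%, 7.79 to 55.1), which were Zfp362, Zfp521, Zfp648 and Zfp711.

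The Hox genes, which give body segments their identity, stood on the ΔCC side. Of the 35 that either mutant listed, none was in ΔMBD only, 12 were in ΔCC only (34.3%) and 23 in both (65.7%, 47.8 to 80.9). With a 1 kb window 3 were in ΔMBD only, 13 in ΔCC only and 7 in both. The 12 were Hoxa11, Hoxa13, Hoxb3, Hoxb4, Hoxb7, Hoxc8, Hoxd3, Hoxd8, Hoxd9, Hoxd10, Hoxd12 and Hoxd13. Of all 35 Hox genes, GFP listed 32 (91.4%) and WT 20 (57.1%). GFP listed 11 of the 12 and WT listed 4, so the GFP count is near the share of all 35. The centres in ΔCC and GFP lay close to each other at several of these genes and not at others. Hoxd9 had centres at 617 and 3738 bp in ΔCC and at 544 and 3570 bp in GFP, and Hoxd13 had its closest centre at 430 bp in ΔCC and at 589 bp in GFP. Hoxd8 had its closest centre at 501 bp in ΔCC and 616 bp in GFP. Hoxc8 had 8 centres in ΔCC, from -4409 to 4262 bp, 8 in GFP, from -4721 to 4163 bp, and 1 in WT at 265 bp. At Hoxb7 the ΔCC centre (-946 bp) lay nearer to the WT centre (-1120 bp) than to the GFP centre (656 bp). Hoxa13 had its closest centre at 717 bp in ΔCC, 671 bp in WT and 802 bp in GFP. The ΔCC centre of Hoxa11 lay at -1653 bp and its closest GFP centre at -963 bp. The ΔCC centre of Hoxd12 (-4118 bp) had no GFP centre nearer than -2016 bp, and Hoxd10 had no GFP peak. In dense clusters a peak is linked to the nearest gene on each side, so a Hox gene missing from a list was not shown to lack SUZ12. A peak linked to another gene as well was present at 27 of the 109 ΔCC-only genes (24.8%), against 42 of the 565 ΔMBD-only genes (7.43%).

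The interferon zeta genes, near-identical copies in tandem, formed the other cluster in ΔCC only. Ifnz and 5 gene models of the same cluster (Gm13271, Gm13275, Gm13276, Gm13283 and Gm13288) had between 4 and 7 peaks in ΔCC, none in ΔMBD, none in WT and between 2 and 5 in GFP. Reads can be divided among such copies, so these peaks are uncertain. Neighbouring copies also share peaks, such as those of Gm13271, all 4 of which were linked to Gm13283 as well. Of the remaining ΔCC-only genes with several peaks, Plekhh3 had 4 in ΔCC and 1 in GFP. Asic4, an acid-sensing channel subunit, had 3 in ΔCC and 2 in WT, and Msi1, an RNA-binding protein of neural progenitors, had 3 in ΔCC, 1 in WT and 1 in GFP.

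**Figure D4:**
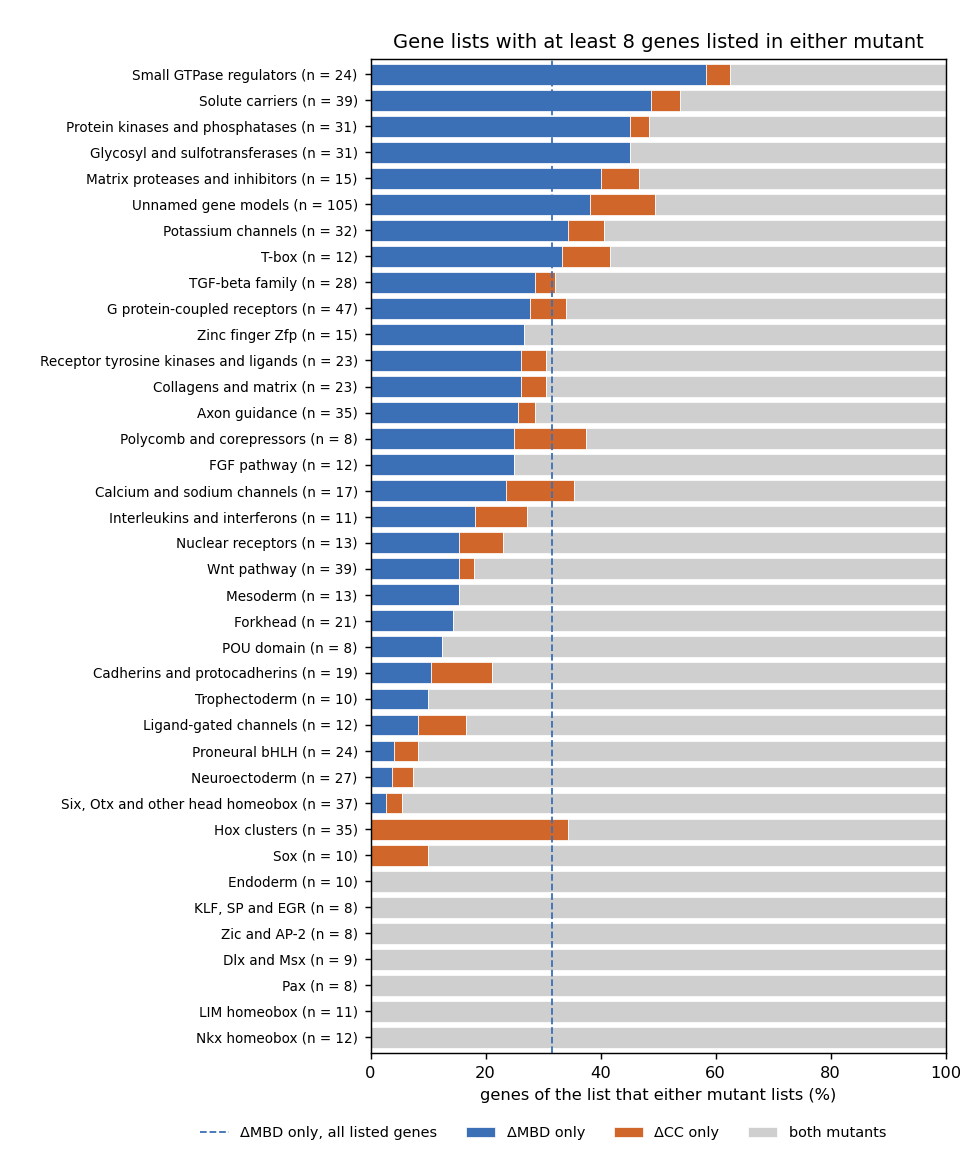
Bars give, for each list with at least 8 genes listed in either mutant, the percentage in ΔMBD only, in ΔCC only and in both mutants; n is that number of genes, and the dashed line is the ΔMBD-only share of all listed genes (31.6%). Small GTPase regulators, solute carriers, kinases and phosphatases and glycosyltransferases lie between 45.2% and 58.3% in ΔMBD only, while Nkx, LIM, Pax, and Dlx and Msx genes lie at 0.

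Among intracellular signalling genes, the GTPase list had a ΔMBD-only interval above the 31.6% of all genes. The kinase and phosphatase list did not. Genes in none of the lists were at 38.2%, a value that both intervals hold. Of 24 genes for GTPases and their regulators, a list that also holds the heterotrimeric G protein regulators Rgs11 and Rgs20, 14 were in ΔMBD only (58.3%, 36.6 to 77.9), 1 in ΔCC only and 9 in both. Of 31 genes of the kinase and phosphatase list, 14 were in ΔMBD only (45.2%, 27.3 to 64.0), 1 in ΔCC only and 16 in both. That list also holds regulators such as Camk2n1 and Ppp1r16b. It leaves out kinase genes such as Cdk6 (ΔMBD only) and Cdk14 (both mutants). Of the 28 ΔMBD-only genes of these lists together, WT listed 25 and GFP listed 1. Of all genes of the lists that either mutant listed, WT listed 89.1% and GFP 34.5%. The WT count is thus near the share of the lists as a whole. Of all ΔMBD-only genes, WT listed 75.8% and GFP 11.9%. Rasgrf2, an exchange factor for Ras, had centres at -607, 343 and 856 bp in ΔMBD and at -593, 35 and 585 bp in WT, with no peak in ΔCC or GFP. Prkch, the eta form of protein kinase C, had 3 peaks in ΔMBD and 1 in WT, and Prkag2, a subunit of AMP-activated kinase, had 3 in ΔMBD and 2 in WT. Camk4, a calcium-dependent kinase, had 2 in ΔMBD and 3 in WT. The ΔCC-only members were Arhgef15 and Dusp8, with 1 peak each in ΔCC.

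Glycosyltransferase and sulfotransferase genes, which build the glycans of proteins and the cell surface, had 14 of 31 in ΔMBD only (45.2%, 27.3 to 64.0), none in ΔCC only (interval up to 11.2%) and 17 in both. The ΔMBD-only interval holds the 31.6% of all genes. In ΔCC only there were 3 genes (10.3%) with a 1 kb window and 2 (9.52%) when at least 2 peaks were required. Galnt3, which starts mucin-type glycans, had centres at -1090, 554 and 1847 bp in ΔMBD and at -1418, 404 and 2417 bp in WT. Galnt7, of the same enzyme family, had 3 peaks in ΔMBD and 1 in WT, and the sialyltransferase gene St8sia5 had 3 in ΔMBD and 2 in WT. Chst11, a chondroitin sulfotransferase, had 2 in ΔMBD and 1 in WT. These 4 genes had no peak in ΔCC or GFP.

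Solute carriers had 19 of 39 genes in ΔMBD only (48.7%, 32.4 to 65.2), 2 in ΔCC only and 18 in both. Together with the ion channels, 35 of 100 were in ΔMBD only (35.0%, 25.7 to 45.2), which is near the 31.6% of all genes, so the channels did not share the higher value of the solute carriers. The solute carrier interval holds the 38.2% of genes in none of the lists. Slc1a2, the main glial glutamate transporter, had centres at 208, 910 and 1412 bp in ΔMBD and at 315 bp in WT. Slc6a20a had 3 peaks in ΔMBD, 1 in WT and 1 in GFP. Among channels, the calcium channel genes Cacna1d and Cacng4 had 4 and 3 peaks in ΔMBD and 1 each in WT. The potassium channel genes Kcnmb4, Kcns3, Kcnh3 and Kcnk2 had 4, 3, 3 and 3 peaks in ΔMBD and 2, 3, 2 and 2 in WT. None of these 6 channel genes had a peak in ΔCC or GFP. Kcns3 centres lay at -298, 773 and 1610 bp in ΔMBD and at 43, 785 and 1618 bp in WT. Cacnb3, a calcium channel subunit, went the other way, with 3 peaks in ΔCC, 1 in GFP and none in ΔMBD and WT.

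Secreted signals and their receptors lay between these groups. Of 149 genes in the Wnt, FGF, TGF-beta, Hedgehog, Notch, axon guidance and receptor tyrosine kinase families, 33 were in ΔMBD only (22.1%), 7 in ΔCC only (4.70%) and 109 in both (73.2%). Wnt genes were mostly shared, with 32 of 39 in both mutants. The TGF-beta family had 8 of 28 in ΔMBD only (28.6%, 13.2 to 48.7), near the 31.6% of all genes. They were ligands (Bmp4, Bmp8b, Inha, Tgfb1 and Tgfb2), the receptor Tgfbr2, the BMP antagonist Chrd and the effector Smad3. Smad9, another effector, was in ΔCC only with 1 peak at 1039 bp. Chrd had centres at -624, 741 and 1821 bp in ΔMBD and at -460 and 746 bp in WT, and Bmp4 a centre at 1251 bp in ΔMBD and at 1641 bp in WT. Tgfbr2 had centres at -103 and 1188 bp in ΔMBD and no peak in ΔCC, WT or GFP. Axon guidance genes had 9 of 35 in ΔMBD only, led by Rgma with 4 peaks in ΔMBD and 1 in WT, while the netrin receptor gene Dcc was in ΔCC only, with centres at 1164 bp in ΔCC and 1381 bp in GFP. The vascular receptor gene Kdr had centres at 285 and 1432 bp in ΔMBD and at 400 and 1732 bp in WT. In the Hedgehog pathway none of 6 genes was in ΔMBD only and 2 were in ΔCC only. These were Gli2, a transcriptional effector with centres at 1098 and 1342 bp, and Boc, a co-receptor with a centre at 644 bp, and neither had a peak in another library. The Notch ligand genes divided, Jag1 with 2 peaks in ΔMBD and 1 in WT, and Jag2 with 1 in ΔCC and 1 in WT.

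Genes of the Polycomb and NuRD complexes were few. Yaf2, a subunit of Polycomb complex PRC1, had 2 peaks in ΔMBD and 1 in WT, and Phf19, a PRC2 partner, had a centre at 516 bp in ΔMBD alone. Cbx8, a PRC1 subunit that reads the PRC2 mark, had a centre at -4028 bp in ΔCC and 3 peaks in GFP. The remodeller genes Chd3 and Chd5, both NuRD ATPases, were in ΔMBD only. Chd3 had centres at 455 and 1717 bp in ΔMBD and at 844 and 1288 bp in WT, and Chd5 a centre at 230 bp in ΔMBD alone.

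Outside the families, the ΔMBD-only genes with most peaks were Lmo4, a LIM-domain cofactor, Nt5e, which makes adenosine at the cell surface, and the noncoding gene A930004D18Rik, with 5 ΔMBD peaks each. In WT they had 3, 4 and 3, and in GFP none. Lrrk1, a kinase gene that the kinase list leaves out, and Soga1 had 4 in ΔMBD and 1 in WT each. No ΔMBD-only gene had more than 5 peaks, and 337 of the 565 (59.6%) had 1.

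The 1112 genes listed in both mutants differed in how many peaks they had. In 380 the number was higher in ΔMBD, in 309 it was higher in ΔCC and in 423 it was equal, and 31 genes differed by 3 or more in each direction. Dmbx1, a homeodomain factor of the midbrain, had 9 peaks in ΔMBD, 5 in ΔCC, 3 in WT and 4 in GFP. Sim1, a bHLH factor of the hypothalamus, had 5 in ΔMBD, 1 in ΔCC, 3 in WT and 3 in GFP. In the other direction, Foxd3, a forkhead factor of the neural crest, had 1 peak in ΔMBD, 7 in ΔCC, 1 in WT and 7 in GFP. Its peak near the start site was shared, at 566 bp in ΔMBD, 561 bp in ΔCC, 565 bp in WT and 535 bp in GFP, and the other ΔCC and GFP centres lay on either side from -4779 to 3709 bp. En2, Dlx6, Evx1 and Evx2, homeodomain factors of brain, limb and spinal cord, had 1 peak each in ΔMBD and 5 each in ΔCC. Evx2 and Hoxd13 are neighbours and share 2 of these ΔCC peaks. The corepressor gene Bcor and its relative Bcorl1 went opposite ways. Bcor had 2 peaks in ΔMBD, 6 in ΔCC, none in WT and 2 in GFP, and Bcorl1 had 6, 1, 3 and none. Gm10720 had 2 peaks in ΔMBD and 7 in ΔCC. A peak number also depends on how broad regions were divided by the caller, and says nothing of peak height.

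**Figure D5:**
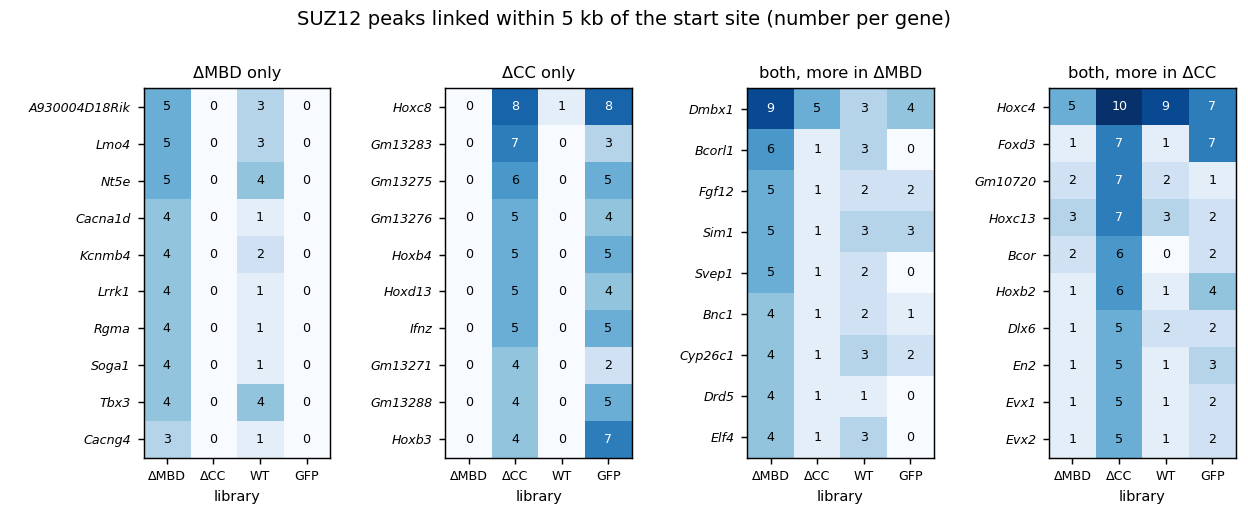
Cells give the number of SUZ12 peaks linked within 5 kb of each gene in the ΔMBD, ΔCC, WT and GFP libraries (1 library each), for the 10 genes with the most peaks in each mutant-only set and for 9 with more peaks in ΔMBD and 10 with more in ΔCC among genes listed in both. Every ΔMBD-only gene shown has peaks in WT and none in GFP, against 65.1% of all ΔMBD-only genes. The 10 ΔCC-only genes shown, which all belong to the Hox or interferon zeta clusters, have peaks in GFP, against 33.0% of the ΔCC-only genes outside those clusters.

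At genes listed in both mutants the distance between the closest centres of the mutants was measured. Both centres were picked as the closest to the start site, so a short distance follows in part from that choice and is a description. Over the 1112 genes the closest centres were a median of 470.5 bp apart, with a median signed difference (ΔMBD minus ΔCC) of 5 bp, and 852 genes (76.6%) had them within 1 kb and 578 (52.0%) within 500 bp. Among the 243 genes with 1 peak in each mutant the median was 295 bp, with 212 (87.2%) within 1 kb and 7 over 2 kb apart.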

How the data were processed

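SUZ12 ChIP-seq was done on Mbd3-knockout mouse ESCs, with 1 library per group. Per the submitters' processing notes, bcl2fastq 2.18.0.12, MACS2 and mouse build mm9 were used; the aligner, the MACS2 settings and any use of the input were not given in the sources used here. Per the file headers, GREAT 3.0.0 linked the peaks of each library to the nearest genes on both sides, at most 5000 bp away, and added GREAT's curated domains. The deposited tables hold peak names and the signed distance in bp of each peak from the start site, and no score, width or read number.

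Lines with the same symbol were joined and links over 5 kb left out. Of 1786 symbols listed in either mutant, 1686 matched a RefSeq symbol (GRCm38.p6), 57 a synonym and 43 none. Sequences are RefSeq's. Peaks were matched at the same gene by centres within 1 kb. With 1 library per group there was no test; intervals are exact (Clopper-Pearson) at 95%. The members and gene lists were chosen with earlier results of these data known. Genes named are the list members in only 1 mutant with the most peaks (up to 4 per list and direction), the 10 with the most peaks in each mutant-only set, the 10 with the largest difference in each direction, and Mbd3 and Suz12; others, including whole lists of members, were named after their values were seen. A gene named by this rule is not reported here. The functions were checked on simulated data. Python 3.11.15, SciPy 1.17.1 and matplotlib 3.10.9 were used.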

Additional observations from a re-analysis of the deposited data

Results flagged for a closer look

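Links longer than 5 kb entered no comparison. They numbered 12 in ΔMBD and 50 in ΔCC. They came from 6 ΔMBD peaks and 16 ΔCC peaks, listed at Evc2 and 6 olfactory receptor genes. Of these, 5 ΔMBD peaks and 13 ΔCC peaks were also linked within 5 kb of Shh, Evx2 or a HoxD gene.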

How the results depend on the processing

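The ΔMBD-only count stayed between 502 and 566 under every setting tried, though not with the same genes when at least 2 peaks were required. The ΔCC-only count, 109, became 231 with a window of 1 kb and 219 with at least 2 peaks per gene. The count in both mutants, 1112, became 648 and 408 in the same order. Within 1 kb, WT listed 67.7% of ΔMBD-only genes and 38.5% of ΔCC-only genes, and GFP listed 16.8% of ΔMBD-only genes and 48.5% of ΔCC-only genes. Among genes with at least 2 peaks in their mutant, WT listed 92.1% of ΔMBD-only genes and GFP 81.2% of ΔCC-only genes. The latter share includes Hox and interferon zeta genes and was not taken without them. Leaving out the Hox and interferon zeta genes, a setting chosen after seeing the data, GFP listed 33.0% of ΔCC-only genes. With centres within 500 bp, 35.0% of ΔMBD peaks had a ΔCC peak and 47.6% of ΔCC peaks a ΔMBD peak; within 2 kb these were 63.3% and 83.1%. Transcription factors outside Hox stayed below the background in ΔMBD only, at 25.4% against 39.2% within 1 kb and 19.9% against 44.5% with at least 2 peaks. In ΔCC only they were below it at 5 kb but above it at 26.1% against 16.0% and 29.2% against 19.4%. Kinase, phosphatase and GTPase genes stayed above it in ΔMBD only, at 59.6% and 72.7%. Glycosyltransferase genes came to 41.4% within 1 kb, near the background. Hox genes in ΔCC only were 13 within 1 kb and 12 with at least 2 peaks, but 3 were then in ΔMBD only within 1 kb. All linked peaks in place of the closest lowered the shares within 1 kb to 67.0% (ΔMBD only), 44.5% (ΔCC only), and 41.0% (ΔMBD) and 45.9% (ΔCC) for genes in both. A check of promoter CG content over the sets is void, since RefSeq promoters were at hand for only 70.0% to 71.6% of each set, below the 80% needed. A stricter peak score could not be tried. No paired analysis was possible because each group has 1 library.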
